A study of Mus musculus with 12 samples.

Results

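Type I interferon response genes were examined in cytotoxic T lymphocytes (CTL) that had lost the kinase PDK1 or had been treated with an inhibitor of the kinase Akt. The list held 41 genes, chosen by name: the receptor chains, the factors that carry the signal to DNA, and genes whose transcription interferon raises. A gene was represented by the probe set, among those naming it alone, with the highest mean over the 12 arrays, which gave values for 39 of the 41 genes, of 18193 genes measured in all. Ifi44 and Isg15 have no probe set that names them alone and were not analysed here. All CTL came from spleens of C57BL/6 mice and were grown alike: CD3 antibody at 0.5 μg/ml and IL-2 at 20 ng/ml were present for an activation of 48 hr, and the antibody was then removed for 5 days in the same IL-2. PDK1 null CTL carried 2 loxP-flanked PDK1 alleles (PDK1fl/fl) and a tamoxifen-inducible Cre gene inserted at ROSA26 (TamoxCre), and Cre control CTL carried TamoxCre with normal PDK1 alleles. Both were given 4-hydroxytamoxifen (4OHT) at 0.6 μM for the last 72 hr, so the Cre and the drug are common to the 2 groups. In a separate experiment, the culture of each of 3 wild-type mice was divided, and one portion received AktI-1/2 (AktI) at 1 μM for the last 48 hr. Each of the 4 groups holds 3 arrays. The mice of the PDK1 experiment differ between the genotypes, whereas each AktI array has a wild-type partner from the same mouse. The mice were matched in age and sex, their ages are not given in the sources used here, and the labels name splenic T cells and no sort.

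Type I interferons (interferon-α and interferon-β) bind a receptor made of IFNAR1 and IFNAR2. The receptor's kinases phosphorylate STAT2, which with IRF9 forms part of a complex named ISGF3 that binds the interferon-stimulated response element (ISRE) in the promoters of antiviral genes. Interferon-γ, which CTL secrete, has its own receptor and acts through a different element (GAS), and the 2 sets of target genes overlap, with the GTPases of the IRG and GBP families responding strongly to interferon-γ.

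Signals are log2 values, so a difference of 1 is a doubling. The median signal of an array ran from 4.61 to 4.63 in the PDK1 experiment and from 5.10 to 5.14 in the Akt experiment, so levels were not compared between the experiments. Arrays of a group correlated at r from 0.996 to 0.998 over all probe sets. Pdpk1, the gene for PDK1, had signals of 9.05, 8.95 and 9.09 in PDK1 null CTL, against 8.96, 9.03 and 8.96 in Cre control CTL, and its other probe set also showed overlapping groups. Whether these probes lie in the deleted part is not given in the sources used here, so they do not check the genotype. All 8 CTL markers, among them Cd3e, Cd8a and Gzmb, were above background in every group. As a background level, the 95th percentile over 80 olfactory and vomeronasal receptor probe sets was taken, 4.45 in the PDK1 experiment and 4.99 in the Akt experiment. All 39 interferon response genes had a mean above it in each of the 4 groups.

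Of the 39 genes, 29 have a promoter in the RefSeq table used here (GRCm38.p6, 250 bases before the start to 50 after it). An ISRE, searched on both strands as GAAA, any 2 bases and GAAA again, was found in 15 of the 29 promoters (51.7%), against 1079 of 27025 promoters of all genes (3.99%). A GAS element, searched on both strands as TTC, any 3 bases and GAA, was found in 11 of them (37.9%), against 9.55% of all promoters. The windows below belong to the 6 genes that hold an ISRE and passed the test or had 1 of the 10 smallest adjusted p in a comparison, and capitals mark the ISRE. Each is written on the strand of the gene and ends 1 base before the start of transcription, except that of Oas3, which spans positions -105 to -46, and that of Ifitm3, which holds the first 30 transcribed bases.
Oas1a, chr5:120907526-120907585 (minus strand): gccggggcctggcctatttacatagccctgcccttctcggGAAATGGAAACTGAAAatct
Oas3, chr5:120777705-120777764 (minus strand): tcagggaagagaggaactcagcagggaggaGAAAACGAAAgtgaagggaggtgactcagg
Ifitm3, chr7:141010715-141010744 (minus strand): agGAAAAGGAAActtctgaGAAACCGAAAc
Gbp2, chr3:142620603-142620662 (plus strand): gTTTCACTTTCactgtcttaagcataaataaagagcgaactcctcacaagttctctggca
Gbp3, chr3:142559984-142560043 (plus strand): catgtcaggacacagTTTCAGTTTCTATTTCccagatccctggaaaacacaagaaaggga
Trim30a, chr7:104465194-104465253 (minus strand): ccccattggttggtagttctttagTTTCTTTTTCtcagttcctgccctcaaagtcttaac
Oas1a and Gbp3 each hold 2 overlapping matches, which read on the gene strand in Oas1a and on the opposite strand in Gbp3. In Ifitm3 both matches lie in the first transcribed bases, and a GAS match at position 14 overlaps the second of them. Isg20, the gene with the smallest adjusted p, has a promoter in the table with a GAS match and no ISRE match. Of the genes that fell with AktI, only 3 have a promoter in the table, namely Oas1a, Ifitm3 and Isg20. Mx1, Usp18, Zbp1, Dhx58 and Rtp4 have none there and were not searched. A match of letters is not evidence that a factor binds there.

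With AktI, 8 of the 39 genes fell and 0 rose by the test used throughout, which asks for a change of 1.5-fold or more and an adjusted p under 0.05 (limma, Benjamini-Hochberg over all probe sets), whereas 1.03% of all genes fell and 1.51% rose by the same rule. The genes that fell were the exonuclease gene Isg20, Mx1, Usp18, the nucleic acid sensors Zbp1 and Dhx58, Ifitm3, Rtp4 and Oas1a. A further 4, Samd9l, Oas2, Oas3 and Ifih1, passed the adjusted p with a change under 1.5-fold. At an unadjusted p under 0.05, 22 were lower and 4 higher in AktI CTL, against 10.7% and 9.62% of all genes. The median log2 fold change of the 39 genes was -0.35, with a range from -1.50 to 0.61, against -0.02 over all genes. The 3 AktI arrays all lay below the 3 wild-type arrays for 18 of the genes (14.8% of all genes) and all above them for 3 (12.7% of all genes). The arrays are bulk RNA, so fewer cells of a type and less RNA per cell cannot be told apart.

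After loss of PDK1, 1 of the 39 genes rose, the GTPase gene Gbp3, and 0 fell, whereas 1.01% of all genes rose and 0.357% fell. At an unadjusted p under 0.05, 6 were higher and 2 lower in PDK1 null CTL, against 8.22% and 9.04% of all genes, and limma was the only tool run. The median log2 fold change was 0.07, with a range from -0.53 to 0.77, against -0.01 over all genes. PDK1 null arrays all lay above Cre control arrays for 5 of the genes (10.9% of all genes) and all below them for 2 (13.7% of all genes).

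**Figure D1:**
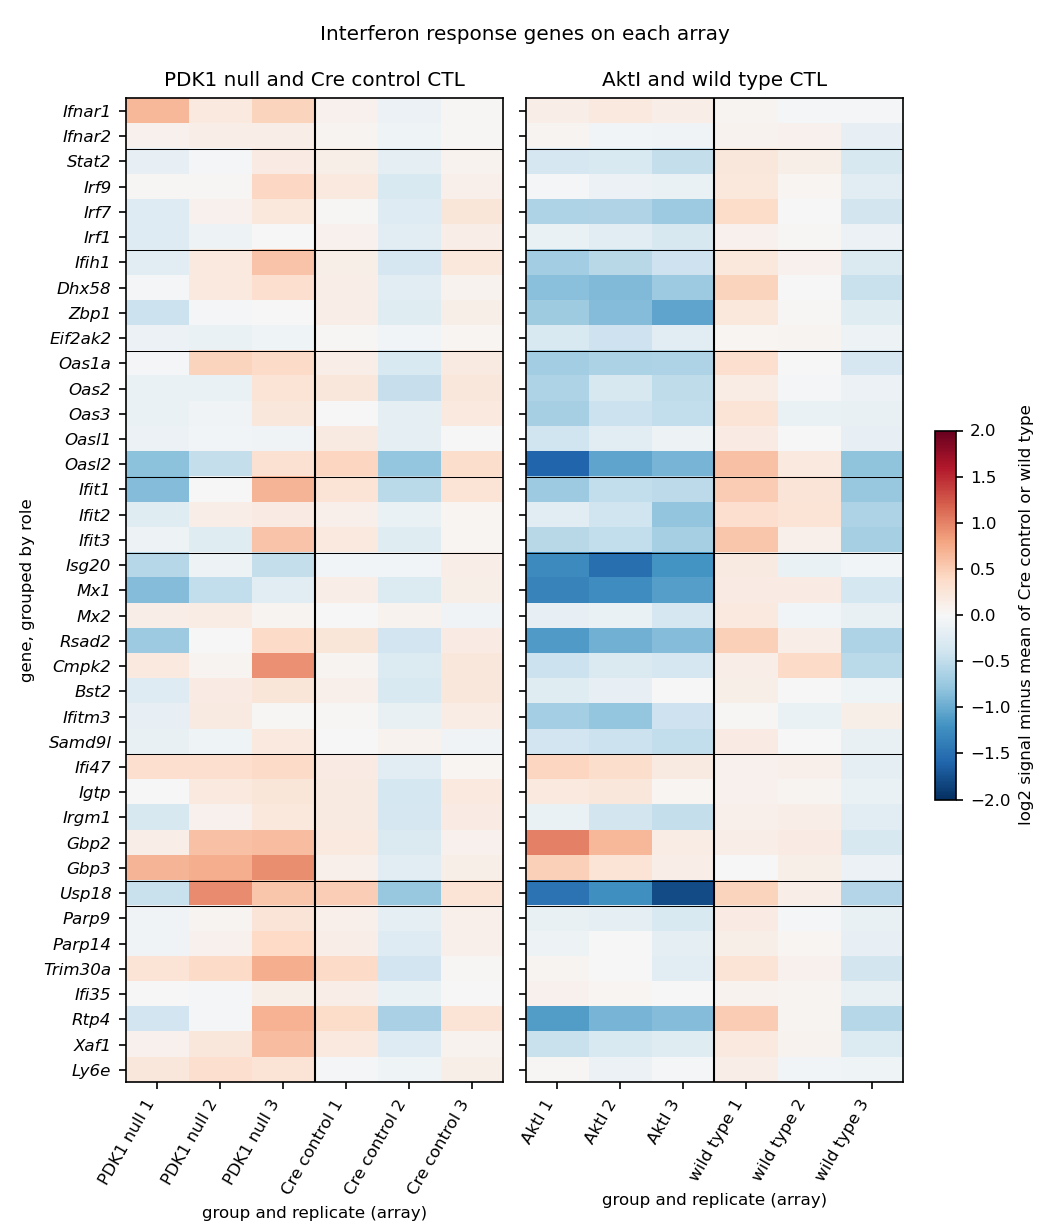
Log2 signal of each of the 39 genes (rows, grouped by role) on each array (columns), given as the difference from the mean of the Cre control arrays (left) or of the wild-type arrays (right). In the right panel most rows of the 3 AktI columns are blue, below the wild-type mean, while Gbp2, Gbp3, Ifi47 and Igtp are red, and the column of wild type 3 is paler or blue where wild type 1 is red.

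**Figure D2:**
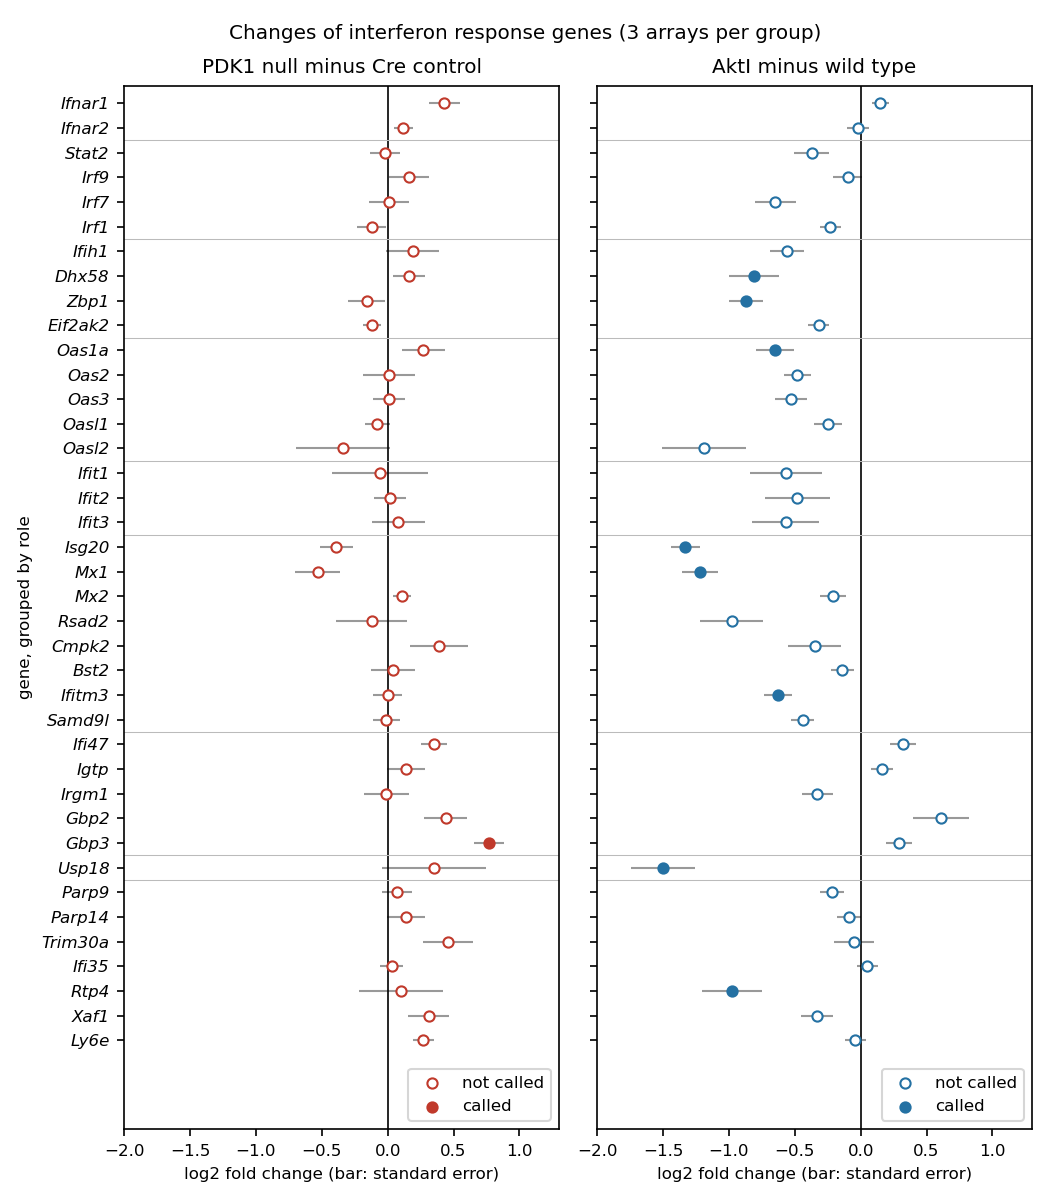
Log2 fold change (horizontal axis) of each gene with its standard error for PDK1 null minus Cre control (left) and AktI minus wild type (right), 3 arrays per group. Filled points pass the test: 1 gene on the left and 8 genes on the right.

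The receptor chains did not change by the test in either comparison. Ifnar1 had signals of 8.54, 8.06 and 8.31 in PDK1 null CTL, against 7.95, 7.76 and 7.90 in Cre control CTL, which is 0.43 ± 0.119 higher on the log2 scale (± standard error, adjusted p = 0.125). In the Akt experiment it had 9.24, 9.30 and 9.23 in AktI CTL and 9.16, 9.08 and 9.07 in wild-type CTL (0.15, adjusted p = 0.270). The groups did not overlap in either experiment, with Ifnar1 higher in the treated or mutant cells, and the differences stayed under 1.5-fold. Ifnar2 had 8.03, 8.08 and 8.09 in PDK1 null CTL against 8.01, 7.86 and 7.97 in Cre control CTL, and 9.53, 9.41 and 9.40 in AktI CTL against 9.54, 9.55 and 9.31 in wild-type CTL. Its log2 fold changes were 0.12 and -0.02.

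None of the 4 transcription factors passed the test in either comparison, and with AktI all 4 had a lower mean. Irf7, which amplifies interferon production and is itself an interferon target, had signals of 7.71, 7.72 and 7.60 in AktI CTL, against 8.68, 8.33 and 7.96 in wild-type CTL. Every AktI array was below every wild-type array, at -0.65 ± 0.155 (adjusted p = 0.0524). With the mouse as a replicate block it passed (adjusted p = 0.0354), and without wild type 3 it was -0.83 (adjusted p = 0.00878). Among the PDK1 arrays Irf7 had 6.68, 7.02 and 7.15 in PDK1 null CTL and 6.96, 6.68 and 7.18 in Cre control CTL, groups that interleave. Stat2, the ISGF3 subunit particular to type I and type III interferon signals, had 7.36, 7.39 and 7.22 in AktI CTL against 7.91, 7.80 and 7.37 in wild-type CTL (-0.37, adjusted p = 0.185). It had 6.01, 6.16 and 6.34 in PDK1 null CTL against 6.30, 6.00 and 6.25 in Cre control CTL (-0.02). Both groups of each experiment overlap for Stat2, in the Akt experiment through the low value of wild type 3. Irf9, the DNA-binding partner of STAT2, had 8.72, 8.64 and 8.61 in AktI CTL against 8.96, 8.79 and 8.52 in wild-type CTL (-0.10), and 7.61, 7.61 and 7.99 in PDK1 null CTL against 7.78, 7.27 and 7.68 in Cre control CTL (0.16). Irf1, a factor that interferon-γ induces strongly, was lower on every AktI array, with 10.43, 10.34 and 10.24 against 10.65, 10.58 and 10.45 in wild-type CTL, by a log2 fold change of -0.23 (adjusted p = 0.180). Irf1 also had 9.04, 9.20 and 9.30 in PDK1 null CTL against 9.38, 9.09 and 9.44 in Cre control CTL (-0.12, adjusted p = 0.690).

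All 4 nucleic acid sensors lay lower on every AktI array than on any wild-type array, and 2 of them passed the test. Zbp1, which binds nucleic acids of the Z form and can start cell death, had signals of 9.60, 9.45 and 9.26 in AktI CTL, against 10.52, 10.34 and 10.07 in wild-type CTL. It fell by 0.87 on the log2 scale (standard error 0.127, adjusted p = 0.00602), and its other probe set fell by 0.86. The fall was of like size in the 3 mice, and the call held without any one array. Dhx58, which encodes the helicase LGP2, had 6.58, 6.54 and 6.69 in AktI CTL, against 7.86, 7.41 and 6.98 in wild-type CTL, where the 3 arrays were far more spread than in AktI CTL. Dhx58 fell by 0.81 (standard error 0.187, adjusted p = 0.0450), and a second probe set fell by 0.82 (adjusted p = 0.0271), while another, at or under background, differed by 0.16. The call was lost with the mouse as a replicate block (adjusted p = 0.0604) and on leaving out any array but wild type 3 (adjusted p between 0.0644 and 0.135). Ifih1, which encodes the RNA sensor MDA5, had a log2 fold change of -0.56 (adjusted p = 0.0461) and Eif2ak2, the RNA-activated kinase PKR, of -0.32 (adjusted p = 0.0593). In PDK1 null CTL the log2 fold changes of the 4 sensors ran from -0.16 to 0.19 and none passed.

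The oligoadenylate synthetases make a messenger that activates RNase L, and Oasl1 and Oasl2 encode their relatives. All 5 had lower means in AktI CTL, with a median log2 fold change of -0.53, and 1 passed. Oas1a had signals of 7.48, 7.54 and 7.55 in AktI CTL, against 8.51, 8.18 and 7.83 in wild-type CTL. It fell by 0.65 (standard error 0.147, adjusted p = 0.0415), a call that was lost with the mouse as a replicate block (adjusted p = 0.0575) and on leaving out any array but wild type 3 (adjusted p between 0.0694 and 0.127). Oas2 had 5.51, 5.81 and 5.62 in AktI CTL against 6.28, 6.09 and 6.01 in wild-type CTL (-0.48, adjusted p = 0.0307). Oas3 had 7.89, 8.13 and 8.06 in AktI CTL against 8.84, 8.42 and 8.41 in wild-type CTL (-0.53, adjusted p = 0.0460). For these 3 genes the groups do not overlap, and Oas2 and Oas3 missed the call only by the fold minimum. Oasl2 had the widest wild-type range, with 4.82, 5.36 and 5.48 in AktI CTL against 7.0, 6.61 and 5.61 in wild-type CTL. Its log2 fold change of -1.19 ± 0.322 did not pass (adjusted p = 0.0803). Without wild type 3 it was -1.59 (adjusted p = 0.00701). The AktI 1 value of 4.82 lay under the background level of 4.99, so these sizes of change are uncertain. After loss of PDK1 the family's median was 0.01, with a range from -0.34 to 0.27.

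The IFIT proteins bind viral RNA and hinder its translation. None of the 3 genes passed in either comparison. Ifit1 had signals of 6.29, 6.52 and 6.49 in AktI CTL, against 7.51, 7.26 and 6.25 in wild-type CTL, so that wild type 3 lay below all 3 AktI arrays. The log2 fold changes of Ifit1, Ifit2 and Ifit3 were -0.57, -0.48 and -0.57 (adjusted p = 0.331, 0.380 and 0.294). Without wild type 3 they were -0.95, -0.79 and -0.90, and all 3 passed (adjusted p = 0.00437, 0.0365 and 0.0136). In PDK1 null CTL they were -0.06, 0.02 and 0.08. There Ifit1 had 4.03, 4.89 and 5.57 in PDK1 null CTL against 5.17, 4.35 and 5.16 in Cre control CTL. Its spread across the PDK1 null arrays was the widest of the 39 genes in that group (SD 0.77). The Ifit1 values of 4.03 and 4.35 lay under the background level of 4.45.

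Among the 8 other antiviral effectors, 3 fell with AktI and all 8 had lower means. Isg20, an exonuclease that degrades single-stranded RNA, had signals of 9.93, 9.70 and 10.02 in AktI CTL, against 11.39, 11.08 and 11.15 in wild-type CTL. It was 2.51-fold lower with AktI (-1.33 ± 0.110, adjusted p = 0.000408), and the difference was -1.47, -1.39 and -1.13 in mice 1 to 3. Where PDK1 was deleted, Isg20 had 9.74, 10.21 and 9.84 in the PDK1 null CTL, against 10.25, 10.25 and 10.45 in Cre control CTL, which do not overlap but differ by only -0.39 (standard error 0.124, adjusted p = 0.182). Mx1 encodes a dynamin-like GTPase that blocks influenza virus in mice with an intact allele, and in C57BL/6 mice the allele is known to be defective, so its transcript marks the response rather than a working protein. Mx1 had 7.27, 7.36 and 7.50 in AktI CTL, against 8.77, 8.77 and 8.25 in wild-type CTL. It fell by 1.22 (standard error 0.140, adjusted p = 0.00201). In PDK1 null CTL it had 6.84, 7.21 and 7.49 against 7.85, 7.44 and 7.83 in Cre control CTL, groups that overlap by the third PDK1 null array (-0.53, adjusted p = 0.184). The calls of Isg20 and Mx1 with AktI held without any one array.

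Ifitm3, a membrane protein that blocks the entry of viruses, had signals of 12.32, 12.23 and 12.58 in AktI CTL, against 13.03, 12.87 and 13.11 in wild-type CTL. It fell by 0.63 (standard error 0.105, adjusted p = 0.0112), just over the fold minimum of 0.585 on the log2 scale. Without AktI 2 it was -0.56 and without wild type 3 it was -0.58, in each case under 1.5-fold with an adjusted p that still passed. In PDK1 null CTL Ifitm3 had a log2 fold change of 0.00. Samd9l, which restricts translation in infected cells, had 9.63, 9.59 and 9.53 in AktI CTL against 10.18, 10.01 and 9.87 in wild-type CTL (-0.44, adjusted p = 0.0270) and missed the fold minimum. Rsad2, which encodes viperin, stood at -0.98 ± 0.237 (adjusted p = 0.0531). Of its 2 other probe sets 1 passed (adjusted p = 0.0329) and 1 did not (adjusted p = 0.107), and both had an AktI mean below background (4.37 and 4.69), so they give no size of change. Cmpk2, the neighbour of Rsad2 and a nucleotide kinase, was not called. It had 6.48, 6.62 and 6.58 in AktI CTL against 7.05, 7.30 and 6.37 in wild-type CTL (-0.35), and 5.58, 5.45 and 6.30 in PDK1 null CTL against 5.45, 5.11 and 5.61 in Cre control CTL (0.39, adjusted p = 0.460). The other Cmpk2 probe set gave -0.42 with AktI (adjusted p = 0.024), under the fold minimum, and -0.07 after loss of PDK1. Without wild type 3, Rsad2 was at -1.29 and Cmpk2 at -0.62, and both passed. Bst2 and Mx2 had log2 fold changes of -0.14 and -0.21 with AktI and of 0.04 and 0.11 after loss of PDK1.

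The GTPases of the IRG and GBP families attack the vacuoles of intracellular parasites and bacteria. Of the 5 on the list, 0 passed with AktI and 1 rose after loss of PDK1. The median log2 fold change of these 5 was 0.29 with AktI, against -0.46 for the other 34 genes. After loss of PDK1 it was 0.35, against 0.04 for the others. This difference between the groups of genes was not tested. Members of these families measured outside the list went in both directions. Iigp1 fell with AktI (-0.70, adjusted p = 0.00537), while Gbp6 stood at -0.35, Irgm2 at -0.05 and Gbp7 at 0.11 without passing. After loss of PDK1, Iigp1, Gbp6, Irgm2 and Gbp7 stood at 0.18, -0.35, 0.02 and 0.36, and none passed. Gbp3 had signals of 8.39, 8.43 and 8.64 in PDK1 null CTL, against 7.81, 7.48 and 7.83 in Cre control CTL. It was 1.71-fold higher in PDK1 null CTL (0.77 ± 0.113, adjusted p = 0.0175). The call was lost without PDK1 null 3 (adjusted p = 0.0640) and without Cre control 3 (adjusted p = 0.0525). With AktI, Gbp3 had 9.93, 9.73 and 9.60 against 9.47, 9.57 and 9.34 in wild-type CTL (0.29, adjusted p = 0.156). Gbp2 was higher in the AktI culture of each mouse, with 12.68, 12.34 and 11.82 in AktI CTL against 11.81, 11.84 and 11.35 in wild-type CTL. Its log2 fold change of 0.61 did not pass across the 6 arrays (adjusted p = 0.166), and it passed with the mouse as a replicate block (adjusted p = 0.0225) and without AktI 3 (0.84, adjusted p = 0.0389). After loss of PDK1, Gbp2 had 10.60, 11.06 and 11.08 in PDK1 null CTL against 10.67, 10.18 and 10.56 in Cre control CTL (0.44, adjusted p = 0.238). Its other probe set gave 0.62 with AktI and 0.47 after loss of PDK1. Probe sets of gene families such as this one can bind transcripts of close relatives. Ifi47 had 11.30, 11.31 and 11.36 in PDK1 null CTL against 11.14, 10.76 and 11.01 in Cre control CTL (0.35, adjusted p = 0.130), and 12.76, 12.68 and 12.51 in AktI CTL against 12.42, 12.43 and 12.15 in wild-type CTL (0.32, adjusted p = 0.125). All its PDK1 null and AktI arrays lay above their controls. Igtp had log2 fold changes of 0.14 after loss of PDK1 and 0.16 with AktI. Irgm1, a regulator of the other IRG GTPases, stood at -0.01 and -0.33. Gbp2, Gbp3, Igtp and Irgm1 hold an ISRE in the promoter window searched.

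Usp18 removes the ubiquitin-like protein ISG15 from its targets and also restrains the interferon receptor at IFNAR2. It had signals of 9.07, 9.32 and 8.76 in AktI CTL, against 10.99, 10.68 and 9.97 in wild-type CTL. It was 2.83-fold lower with AktI (-1.50 ± 0.243, adjusted p = 0.00991), the largest fold among the 39 genes, and the call held without any one array. In the PDK1 experiment it had 6.31, 7.70 and 7.32 in PDK1 null CTL against 7.25, 6.00 and 7.03 in Cre control CTL, a difference of 0.35 with a standard error of 0.396. The 2 groups interleave over a wide range, and no difference was detectable at that spread.

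Of the 7 remaining genes, Rtp4 fell with AktI. Rtp4, a chaperone of membrane receptors, had 8.81, 9.0 and 9.06 in AktI CTL, against 10.44, 9.98 and 9.36 in wild-type CTL (-0.98, standard error 0.228, adjusted p = 0.0475). The call was lost with the mouse as a replicate block (adjusted p = 0.0750) and on leaving out any array but wild type 3 (adjusted p between 0.0898 and 0.146). Trim30a, Ly6e and Xaf1 were among the 10 genes with the smallest adjusted p after loss of PDK1, and none passed. Trim30a had 8.83, 8.93 and 9.28 in PDK1 null CTL against 8.93, 8.16 and 8.57 in Cre control CTL (0.46, adjusted p = 0.301), and a log2 fold change of -0.05 with AktI. Ly6e, a surface protein anchored by lipid, had 12.32, 12.44 and 12.37 in PDK1 null CTL against 12.08, 12.01 and 12.22 in Cre control CTL (0.27, adjusted p = 0.140), and -0.04 with AktI. Xaf1, a pro-apoptotic protein, had 9.08, 9.23 and 9.61 in PDK1 null CTL against 9.20, 8.74 and 9.07 in Cre control CTL (0.31, adjusted p = 0.418), and -0.33 with AktI. Of these 3, Ly6e alone separates the PDK1 null from the Cre control arrays. Parp9, Parp14 and Ifi35 had log2 fold changes of -0.22, -0.09 and 0.05 with AktI and of 0.07, 0.14 and 0.03 after loss of PDK1.

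**Figure D3:**
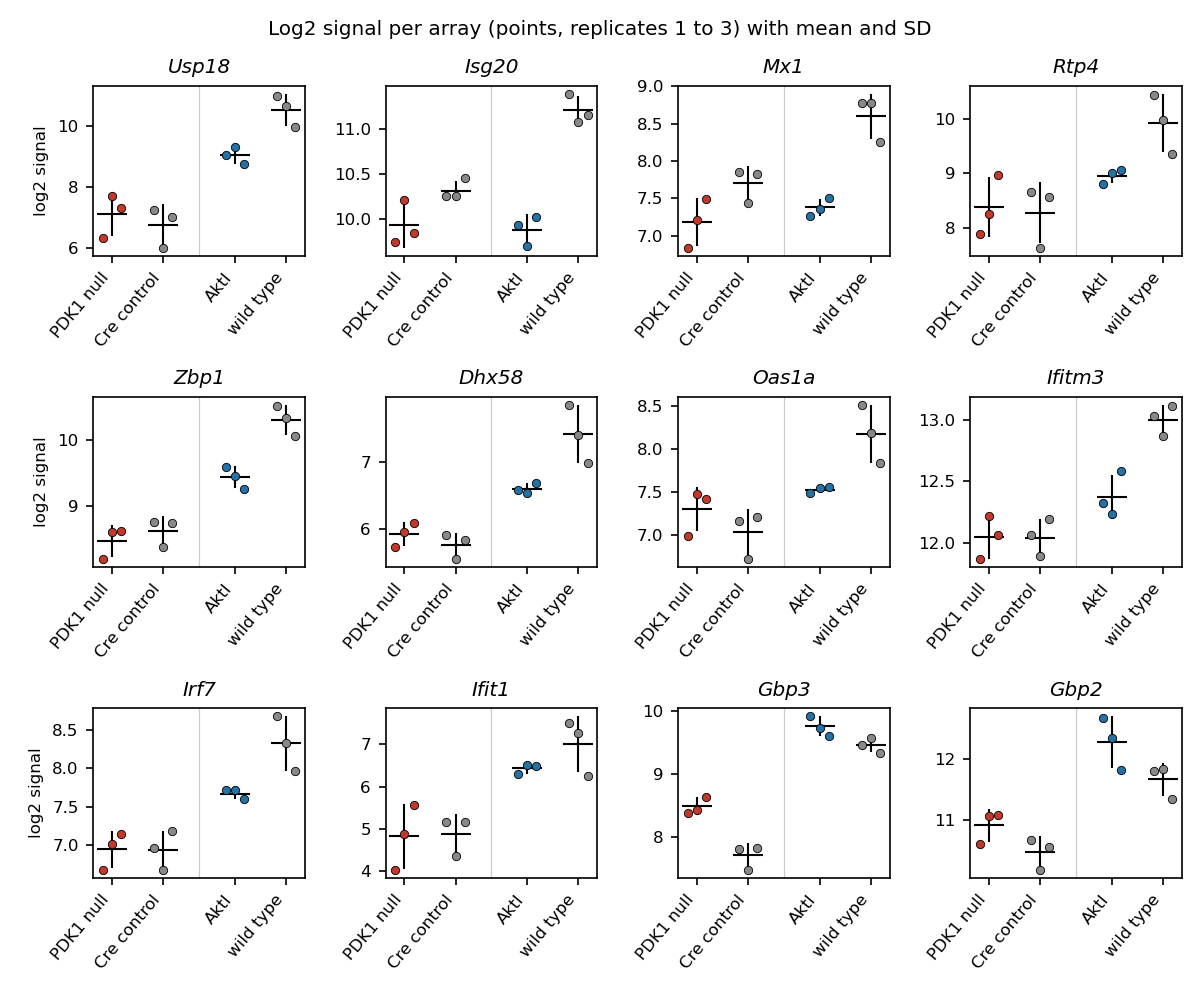
Log2 signal (vertical axis, a scale for each gene) of 12 of the genes on every array: points are replicates 1 to 3, bars the mean and SD of 3 arrays. The AktI points of Usp18, Isg20, Mx1 and Zbp1 lie below all wild-type points, the third wild-type point is the lowest of its group in 10 of the panels, and the PDK1 null points of Gbp3 lie above all Cre control points. Levels are not comparable between the left and right pairs of a panel.

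Each mouse of the Akt experiment gives its own difference. In mouse 1, 33 of the 39 genes were lower in the AktI culture than in its untreated partner, with a median difference of -0.57, where 52.2% of all genes were lower. In mouse 2 it was 34 of 39 with a median of -0.41 (50.3% of all genes). In mouse 3 it was 23 of 39 with a median of -0.13, a count near the 55% of all genes that were lower there. The same direction, lower in all 3 mice, was found for 23 genes, against 24% of all genes, and 5 genes were higher in all 3 mice, against 19.8% of all genes. Those 5 were Ifnar1, Gbp2, Gbp3, Ifi47 and Igtp. Zbp1 and Isg20 differed by like amounts in the 3 mice. In mice 1 to 3, Oasl2 differed by -2.19, -1.25 and -0.13 and Rtp4 by -1.64, -0.99 and -0.30. The Oasl2 difference in mouse 1 rests on an AktI signal under background. With the mouse as a replicate block, 6 genes fell (Isg20, Mx1, Usp18, Zbp1, Ifitm3 and Irf7) and 1 rose (Gbp2).

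**Figure D4:**
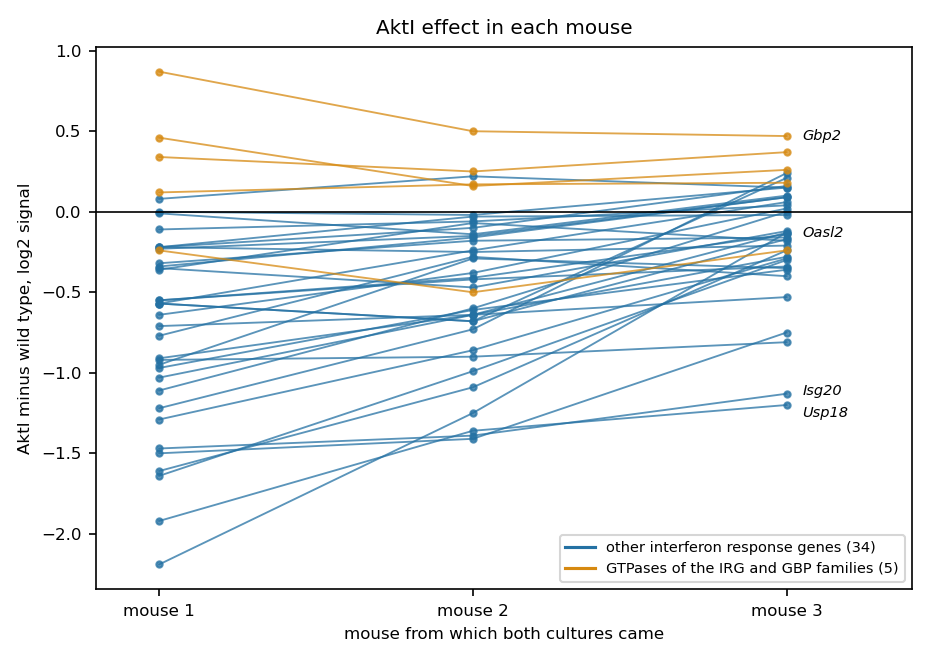
AktI minus wild-type log2 signal (vertical axis) of each of the 39 genes in the 3 mice (horizontal axis), each line joining the values of 1 gene. Most lines lie below 0 in mice 1 and 2 and nearer to 0 in mouse 3, and 4 of the 5 GTPase lines lie above 0 in all 3 mice.

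The smaller differences of mouse 3 came with a low wild-type array. Wild type 3 was the lowest of its group for 37 of the 39 genes, against 32.9% of all genes, by a median of -0.34 from the other 2 arrays. In the PDK1 experiment Cre control 2 was the lowest of its group for 36 genes (31.6% of all genes), by a median of -0.38, and PDK1 null 1 for 32 genes (29.3% of all genes), by -0.27, while PDK1 null 3 was the highest for 31. The median SD over 3 arrays was 0.11 in AktI CTL and 0.22 in wild-type CTL, against 0.08 and 0.09 for all genes. It was 0.24 in PDK1 null CTL and 0.22 in Cre control CTL, against 0.09 and 0.08 for all genes. The SD of a gene was smaller in AktI than in wild-type CTL for 32 of the 39 genes, against 58.0% of all genes. The part of these arrays in the counts is given by leaving them out: without wild type 3, 15 genes fell with AktI, and without both arrays of mouse 3, 16 fell and Gbp2 rose. Without AktI 1, AktI 2, AktI 3, wild type 1 or wild type 2, the genes that fell numbered 5, 4, 5, 5 and 5, and Gbp2 rose without AktI 3. Without PDK1 null 1 and Cre control 2 together, 0 genes passed after loss of PDK1 and Gbp3 stood at 0.71 (adjusted p = 0.0723).

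The PDK1 effect minus the AktI effect was positive for 36 of the 39 genes, with a median of 0.49 on the log2 scale against 0.00 over all genes. It passed for 1 gene, Isg20 (0.94, standard error 0.179, adjusted p = 0.0379), where 0.319% of all genes passed in that direction and 0.203% in the other. At an unadjusted p under 0.05 it was positive for 17 genes and negative for 0, against 5.66% and 5.42% of all genes. Isg20 was thus the only gene of the list for which the AktI effect of -1.33 was shown to differ from the PDK1 effect of -0.39. Its difference passed without PDK1 null 1 and without AktI 3 and was lost on leaving out each of the other 10 arrays (adjusted p up to 0.111). Usp18 had the largest difference (1.85, adjusted p = 0.192) but a wide error in the PDK1 experiment, and the differences of Dhx58 (0.97, adjusted p = 0.138) and Oas1a (0.92, adjusted p = 0.153) did not pass. Without wild type 3, Dhx58 passed (1.19, adjusted p = 0.0250) and Isg20 did not (adjusted p = 0.0687).

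A further 80 genes that make, carry, sense or answer interferon signals were listed, of which 70 were measured. With AktI, 7 of the 70 fell and 5 rose, and after loss of PDK1, 1 fell and 4 rose, with medians of -0.06 and 0.10. Over all genes, 1.03% fell and 1.51% rose with AktI, and 0.357% fell and 1.01% rose after loss of PDK1. Ifng, the gene of interferon-γ itself, had signals of 6.91, 6.54 and 6.67 in AktI CTL, against 8.96, 8.47 and 9.01 in wild-type CTL. It fell by 2.10 (standard error 0.152, adjusted p = 0.000211). In PDK1 null CTL it had 6.56, 8.04 and 6.41 against 7.54, 8.31 and 8.01 in Cre control CTL (-0.95, standard error 0.396, adjusted p = 0.301), the second PDK1 null array lying among the controls. Ifnb1, Ifna2 and Ifna4 were below background in every group, and Ifna1, above it, had log2 fold changes of -0.14 with AktI and -0.01 after loss of PDK1.

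Irf8, an interferon-regulatory factor of lymphoid and myeloid cells, fell in both comparisons (-1.29 with AktI, adjusted p = 0.000222, and -0.91 after loss of PDK1, adjusted p = 0.0189). The other genes that fell with AktI were the ISG15 ligase gene Herc6 (-0.66), the IRG GTPase gene Iigp1 (-0.70), Slfn8 (-0.67), Parp12 (-0.68) and Mlkl (-0.90), the effector of necroptosis. Rises in both comparisons were found for Socs3, a feedback inhibitor of cytokine receptors (0.84 with AktI and 0.83 after loss of PDK1), and for the schlafens Slfn1 (0.73 and 1.13) and Slfn2 (0.80 and 0.82). Samhd1, which hydrolyses nucleotides (0.90), and Epsti1 (0.72) rose with AktI. The chemokine gene Ccl5 rose after loss of PDK1 (0.98, adjusted p = 0.0499). Each also had a higher mean in the other comparison without passing. Samhd1 stood at 0.75 (adjusted p = 0.0723) and Epsti1 at 0.48 after loss of PDK1, and Ccl5 at 0.69 with AktI (adjusted p = 0.0622).

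Markers of other cells were measured on the same arrays. Summed over 5 markers of plasmacytoid dendritic cells, the linear signal was 172 to 186 in AktI CTL against 171 to 199 in wild-type CTL, and 184 to 205 in PDK1 null CTL against 202 to 227 in Cre control CTL, with 3 of 5 above background in each group. The markers Ccr9 and Ly6d were below background and none of the 5 passed. The 4 B cell markers summed to 172 to 184 in AktI CTL against 146 to 170 in wild-type CTL. In PDK1 null CTL they summed to 112 to 116 against 108 to 118 in Cre control CTL. Ms4a1 was below background in each group, and Cd79a was below it in both groups of the PDK1 experiment (means 4.43 and 4.42). The 7 myeloid markers summed to 318 to 335 in AktI CTL against 414 to 489 in wild-type CTL, with 4 of 7 above background in both groups and Lyz2, Cd14 and Itgam below it. Of these markers Cd68 fell (-1.3, adjusted p = 0.00563), and the other 6 summed to 254 to 262 in AktI CTL against 271 to 284 in wild-type CTL. In the PDK1 experiment all 7 myeloid markers summed to 309 to 369 in PDK1 null CTL against 293 to 308 in Cre control CTL. The 6 without Cd68 summed there to 225 to 248 against 219 to 227. The 2 NK markers measured, of which Eomes is also expressed by CTL and Ncr1 was below background, summed to 2772 to 2971 in AktI CTL against 3728 to 4048 in wild-type CTL, and 900 to 1032 in PDK1 null CTL against 940 to 1042 in Cre control CTL. For CD4 T cells the 3 markers summed to 154 to 165 in AktI CTL against 161 to 169 in wild-type CTL, and to 118 to 135 in PDK1 null CTL against 120 to 138 in Cre control CTL, with Foxp3 below background in each group and Cd40lg below it in all groups but PDK1 null. The part of the myeloid and NK signal in the 8 falls with AktI was not tested. Of the CTL markers, the perforin gene Prf1 fell with AktI (-2.2, adjusted p = 0.000164), and Cd2 rose after loss of PDK1 by 0.67 (adjusted p = 0.0151).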

How the data were processed

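RNA of CTL was hybridised to Affymetrix mouse expression arrays, 3 per group. The deposited log2 signals are those of the authors, who used Affymetrix Expression Console 1.1 with robust multichip averaging, and nothing further was done to them. The 2 experiments appear to have been normalized separately. Of 45101 probe sets, 64 were controls and 45037 were tested. Of these, 34945 name 1 gene, 932 several and 9160 none.

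Each comparison was fitted on its own 6 arrays in R 4.3.3 with limma 3.58.1 (lmFit, eBayes), without covariates and with Benjamini-Hochberg adjustment over all tested probe sets. To pass, a gene needed 1.5-fold and an adjusted p under 0.05. Differences between the effects came from a model of the 4 group means on 12 arrays. The study's SAM test was replaced by limma. With 3 arrays per group, a two-sided permutation test of a single gene on its own values cannot go below p = 0.1. This floor is not that of SAM, and the number of arrays limits the precision. The replicates of the PDK1 experiment are different mice. In the Akt experiment the study divided the culture of each mouse, and the 3 pairs were matched here by the replicate number in the labels, which name no mouse. After removal of group means, same-mouse arrays correlated at r = 0.17, 0.0343 and 0.0607, against -0.102 to 0.0383 for other pairs.

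The members and lists were chosen with earlier results of these data known. Values on every array are given for members that passed, for the 10 smallest adjusted p in each of the 2 comparisons, for Ifnar1, Ifnar2, Stat2, Irf9, Irf7 and Irf1, and for Oasl2, Ifit1 and Pdpk1, which were added after their values were seen. Of the other pathway genes, those that passed and Ifng are named. Ifnb1, the Ifna genes, Irgm2, Gbp6 and Gbp7 were added after their values were seen. limma was tested on simulated data.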

Additional observations from a re-analysis of the deposited data

Results flagged for a closer look

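The effect of AktI on Isg20 differed from that of PDK1 loss by a test of the difference itself, with a PDK1 effect minus AktI effect of 0.94 on the log2 scale (limma, adjusted p = 0.0379). No other gene of the list passed that test. The call was lost on leaving out each of 10 of the 12 arrays (adjusted p up to 0.111) and with a 2-fold minimum.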

How the results depend on the processing

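With a 2-fold minimum, the genes that rose after loss of PDK1 numbered 0, those that fell with AktI 3, and those with a higher PDK1 effect than AktI effect 0. With the mouse as a replicate block, 1 gene rose with AktI (Gbp2) and 6 fell, with Irf7 gained and Dhx58, Oas1a and Rtp4 lost, and the block changed no other call of the list. Leaving out arrays gave 0 to 1 genes that rose after loss of PDK1, 0 to 1 that rose and 4 to 16 that fell with AktI, and 0 to 1 with a higher PDK1 effect. The settings without PDK1 null 1 and Cre control 2 and without both arrays of mouse 3 were chosen after seeing the data. The medians ranged from -0.04 to 0.17 after loss of PDK1, from -0.51 to -0.28 with AktI and from 0.34 to 0.56 for the difference. Trend and robust settings gave 7 genes that fell with AktI, with Usp18 (adjusted p = 0.0706) and Rtp4 (adjusted p = 0.160) lost and Irf7 (adjusted p = 0.0254) gained, quantile normalization 9, dim probe sets left out 10 and no fold minimum 12. In the PDK1 experiment a block by replicate number, which no label ties to a mouse, left the count at 1. Over all settings, 1911 values of single genes gave 0 reversals of a gene that had passed, 45 losses and 32 gains of a call. Another 75 changed sign without having passed. The causes were not tested. Small changes are out of reach with groups of 3 arrays.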
